A study of Mus musculus with 6 samples.

Results

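Among the 18404 genes of a read-count table of mouse ear skin, 40 genes of G2 and mitosis were followed. They were taken by their symbols from a list chosen with earlier results of these data known. All 40 were found in the table and all 40 passed the filter on low counts that left 14920 genes for testing. The skin was collected at postnatal day 3 in 3 samples of littermate controls and 3 samples with an endothelial knockout of Kdr, the gene of the VEGF-A receptor VEGFR2 (labelled ecko). Tamoxifen is recorded for every sample, and the series' text has pups of this age dosed daily with 60 µg, starting at postnatal day 1, and the name of the series gives a time of 48 h. The labels name neither the Cre line nor the genotype of the controls, and they do not say whether the samples of a group are separate animals, so a p-value here reflects the scatter of these libraries, which may be partly technical.

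The listed genes are transcribed mainly in cells that approach and pass through division. Cyclins A and B activate the kinase CDK1 to open mitosis, Polo-like and Aurora kinases build the spindle, and kinetochore proteins tie each chromosome to its microtubules. The spindle checkpoint holds the cell until every kinetochore is attached, after which the anaphase-promoting complex (APC/C) marks cyclin B for destruction and the cell is cleaved in cytokinesis. In newborn skin the dividing cells include basal keratinocytes, hair follicle matrix cells, fibroblasts and growing vessels. The RNA came from the whole tissue, so a level here adds up all dividing cells, and more dividing cells cannot be told apart from more RNA in each.

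Libraries held 16987130 to 17979182 expected counts, the estimated read numbers per gene. Kdr had 77.1 to 103 CPM (counts scaled to a common library size with TMM) in the controls and 19.4 to 24.2 CPM in ecko, with a log2 fold change of -2.05 ± 0.12 (SE) and an edgeR adjusted p of 0.0002, so the labels hold for the deleted gene. It was the 1 gene of 14920 past the threshold. Control 2 and ecko 3 were almost without Y-linked reads (4 and 6 counts of Ddx3y, against 1445 to 1641 in the other 4 libraries). Keratinocyte and fibroblast markers were abundant in every library, as skin should give. The cartilage markers summed to 72.7 to 93.9 CPM, with only 0 or 1 count of Matn1 and 0 to 2 counts of Matn3 per library. Most of this sum was Sox9 (835 to 1309 counts) and Acan (256 to 327 counts). Col2a1 had only 11 to 21 counts and Comp 13 to 22. Control 3 had the lowest summed level of 12 skeletal muscle genes, 6450 CPM against 8816 to 11428 CPM in the other libraries.

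The mean of every one of the 40 mitosis genes was higher in ecko than in the controls, as was that of 49.5% of all genes tested. The differences were small. The median log2 fold change was 0.16 (1.12-fold), from 0.03 for Foxm1 to 0.49 for Kif20b, beside a median of -0.002 over all genes. In 17 members (42.5%) every ecko library lay above every control, and the share over all genes was 7.55% (15.7% counting both directions). At an unadjusted edgeR p under 0.05 there were 15 members (37.5%) against 4.92% of all genes in that direction and 9.01% in either. None passed after Benjamini-Hochberg adjustment over all genes, where 0.0067% of genes did (lowest edgeR adjusted p 0.348, for Ndc80), and none passed with DESeq2 or limma-voom. Genes of the cell cycle vary together between libraries, so 40 genes are not 40 separate observations. This list and the other gene lists below were chosen with earlier results known. Their shares beside those of all genes are therefore descriptions, not independent support. For 35 members the 95% interval of the fold change ended below 1.5-fold, so larger differences lay outside those intervals.

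**Figure D1:**
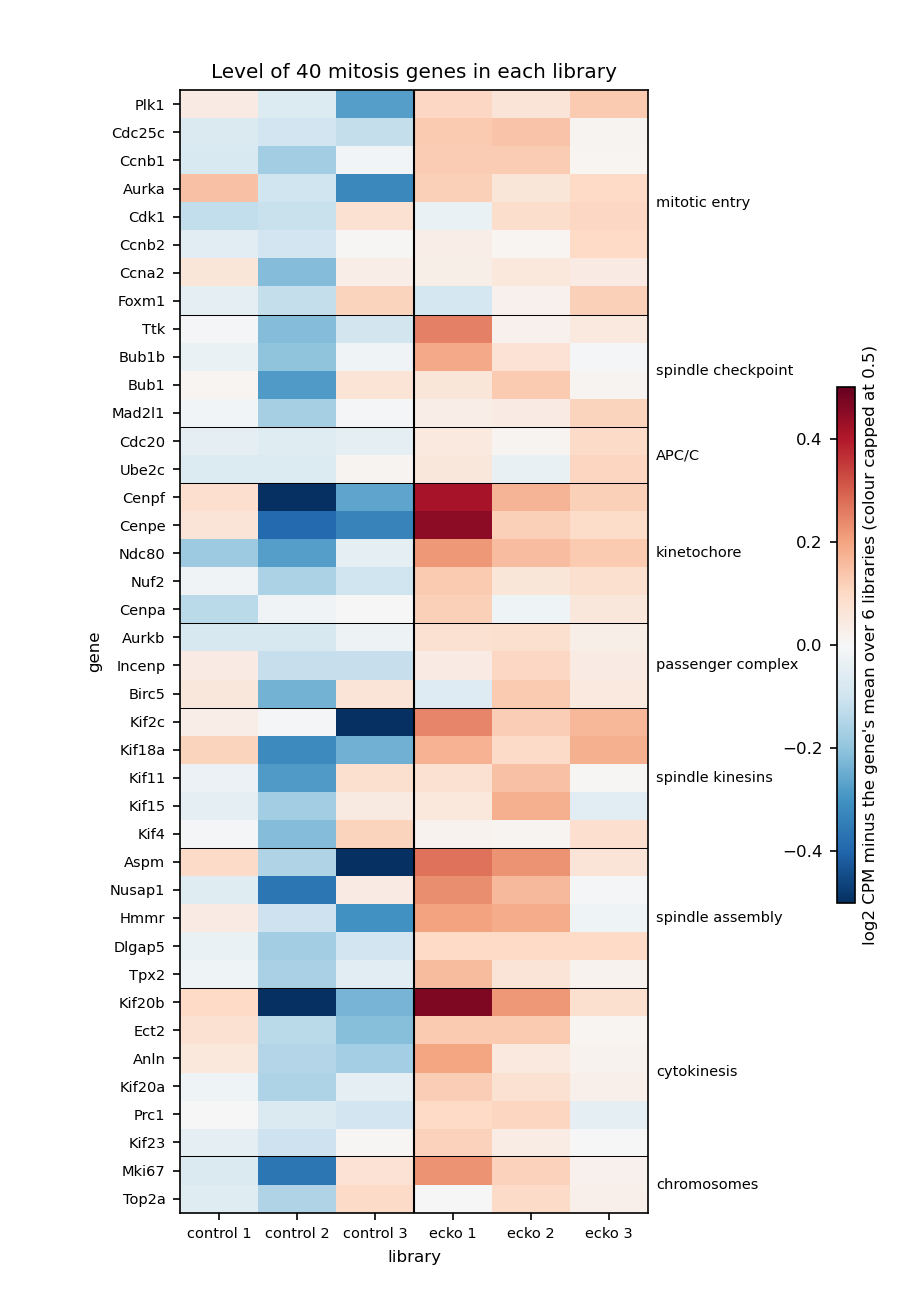
Each cell shows the log2 CPM of 1 gene in 1 library minus that gene's mean over the 6 libraries, with genes in rows grouped by role and libraries in columns (controls left of the line, ecko right). The highest value fell in an ecko library for 37 of the 40 genes and the lowest in a control for all 40. Of all genes tested, ecko 1, 2 and 3 held the highest value of 19.3%, 11.3% and 12%. Controls 1, 2 and 3 held the lowest of 13.8%, 14.5% and 29.3%. Colours are capped at 0.5, which 4 values exceed.

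Summed over the 40 genes, the controls had 3049, 2708 and 3043 CPM and ecko had 3368, 3302 and 3189 CPM. The lowest ecko library stood above the highest control, and the ratio of the means was 1.12. In this sum control 2 was the library furthest from the others. It held the lowest value of 28 members, control 3 that of 10 and control 1 that of 2. Ecko 1 held the highest value of 18 members, ecko 2 of 10 and ecko 3 of 9. Over all genes tested, control 2 held the lowest value of 14.5% and ecko 1 the highest of 19.3%. By that measure control 3 stood out most, with the lowest value of 29.3% of all genes and the highest of 27.5%. Without control 2 the mean was higher in ecko for 36 members and the median log2 fold change was 0.116. Without ecko 1 only 1 member (2.5%) had an unadjusted edgeR p under 0.05, below the share of all genes in that fit (3.72%). The number was 5 (12.5%) without control 2 and 5 without ecko 2, against 8.18% and 7.9% of all genes. It was 12 without ecko 3, 15 without control 3 and 19 without control 1, where 7.01%, 9.28% and 11.9% of all genes had such a p. With some library left out, the log2 fold change of 24 of the 40 members moved by over 1.5 times.

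The 2 libraries almost without Y-linked reads were control 2 and ecko 3, both the lowest of their group in summed mitosis CPM. Between these 2 libraries all 40 members were higher in ecko 3, with a median log2 difference of 0.20 (-0.002 over all genes). Among the other 4 libraries 36 members were higher on average in ecko (median 0.15, and 0.0037 over all genes). A comparison of 1 library with 1 other gives no measure of error.

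Promoters of this gene class are known to carry a cell cycle element called CHR, bound by the MuvB complexes, downstream of CCAAT boxes, bound by NF-Y. RefSeq (GRCm38.p6) gives promoter windows, 250 bases before to 50 after a start site, for 32 of the 40 members. Not every start site is at the outer end of its gene. The Kif2c window (chr4:117178723-117179022, minus strand) lies inside the gene, which ends at 117182624. That of Aspm begins at 139454523, inside a gene that starts at 139454188. Such windows were counted like the others. TTTGAA, the main spelling of the CHR, stood on either strand in 24 of the 32 (75.0%), against 20.2% of all 27025 genes with such a window and 14.9% of the tested ones. TTCGAA, a variant spelling, was in 9.38% of members and 1.8% of all genes. CCAAT was in 68.8% of members and 41.1% of all genes, and both kinds of motif, in either CHR spelling, stood together in 62.5% and 8.61%. The S phase genes described further on had TTTGAA in 11.6% and CCAAT in 62.8%. TTCGAA reads alike on both strands, and a CCAAT followed by TTGAA shares its last letter with TTTGAA. A match of letters is a description, not a bound site. The 25 members with either CHR spelling had a median log2 fold change of 0.17 (0.07 to 0.49) and the 7 without had 0.18 (0.07 to 0.44). The 22 with CCAAT had 0.16 and the 10 without 0.22, and the 20 with both kinds of motif 0.14 against 0.22 in the other 12. These splits were not tested.

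The stretches of 6 members are printed from 150 bases before to 30 after the start site, because they hold the 4 members with the largest fold changes and 2, Ccnb2 and Cdc20, with small ones. Capitals mark CCAAT (or ATTGG, its other strand) and TTTGAA. They are chr1:189688057-189688236 (minus strand) for Cenpf, chr19:34922208-34922387 (plus strand) for Kif20b, chr3:135212413-135212592 (plus strand) for Cenpe, chr1:139454623-139454802 (plus strand) for Aspm, chr9:70421525-70421704 (minus strand) for Ccnb2 and chr4:118437314-118437493 (minus strand) for Cdc20.
Cenpf: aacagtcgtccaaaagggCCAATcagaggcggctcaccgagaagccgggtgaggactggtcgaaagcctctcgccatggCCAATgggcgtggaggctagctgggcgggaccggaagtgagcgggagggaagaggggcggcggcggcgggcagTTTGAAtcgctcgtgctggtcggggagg
Kif20b: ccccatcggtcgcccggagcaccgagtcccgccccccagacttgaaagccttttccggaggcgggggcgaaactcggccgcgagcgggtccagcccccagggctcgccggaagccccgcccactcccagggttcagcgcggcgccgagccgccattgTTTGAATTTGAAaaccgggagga
Cenpe: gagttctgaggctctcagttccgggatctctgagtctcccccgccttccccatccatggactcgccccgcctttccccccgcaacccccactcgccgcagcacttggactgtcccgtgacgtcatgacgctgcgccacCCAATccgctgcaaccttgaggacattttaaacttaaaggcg
Aspm: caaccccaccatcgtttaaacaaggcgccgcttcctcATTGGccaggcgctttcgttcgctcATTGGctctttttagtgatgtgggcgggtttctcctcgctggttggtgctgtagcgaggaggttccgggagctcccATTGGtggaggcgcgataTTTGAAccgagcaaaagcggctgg
Ccnb2: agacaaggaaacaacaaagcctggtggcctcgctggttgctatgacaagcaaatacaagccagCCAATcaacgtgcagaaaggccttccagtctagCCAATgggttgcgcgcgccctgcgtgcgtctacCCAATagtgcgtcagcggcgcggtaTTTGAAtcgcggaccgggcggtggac
Cdc20: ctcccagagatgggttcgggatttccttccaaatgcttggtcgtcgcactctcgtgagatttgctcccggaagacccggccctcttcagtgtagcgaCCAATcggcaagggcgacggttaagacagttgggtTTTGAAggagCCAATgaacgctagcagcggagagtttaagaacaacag
Cenpf has TTTGAA 3 bases into the transcript with CCAAT boxes that begin 132 and 71 bases before the start site. Ccnb2 has the same order with 3 CCAAT boxes, and 1 more TTTGAA upstream of the printed stretch. Kif20b has 2 copies of TTTGAA head to tail and no CCAAT in its window. Cenpe has 1 CCAAT and no TTTGAA.

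Among the 40 members, the kinetochore genes had the largest median difference of the 9 roles. All 5 were higher on average in ecko, 4 of them without overlap, and their median log2 fold change was 0.34. Of all genes tested, 49.5% were higher on average and 7.55% had no overlap on that side. The counts by role, here and below, are descriptions of a few genes each. Ndc80, the microtubule-binding core of the outer kinetochore, had 26.2, 24.6 and 28.8 CPM in the controls and 34.7, 33.2 and 32.6 CPM in ecko. Every ecko library was above every control, with a log2 fold change of 0.34 ± 0.09 (SE), an edgeR p of 0.0026 and an adjusted p of 0.348. Its rank by p was 112 among all genes, the best of the 40. Nuf2, its partner in the same complex, had 40.02, 36.2 and 37.8 CPM against 44.3, 42.3 and 42.8 CPM (log2 fold change 0.18 ± 0.07), again without overlap. Spc24 and Spc25 of that complex, which are not among the members, had log2 fold changes of -0.10 ± 0.10 and 0.20 ± 0.12. In both the groups overlapped. Other kinetochore genes outside the members also went both ways, among them Cenps (-0.11 ± 0.19), Dsn1 (0.04 ± 0.10) and Knl1 (0.42 ± 0.11). The median of the 5 members therefore does not stand for all kinetochore genes.

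Cenpe, a kinesin that carries chromosomes to the spindle equator, had 49.2, 35.9 and 37.4 CPM in the controls and 64.2, 51.2 and 50.2 CPM in ecko. Control 1 was just below ecko 3, and ecko 1 stood well above the rest. Cenpf, a large protein of the outer kinetochore, had the same shape, with 75.4, 49.5 and 59.2 CPM against 94.6, 80.01 and 77.1 CPM. The log2 fold changes were 0.44 ± 0.14 and 0.45 ± 0.15 (SE), with edgeR adjusted p of 0.482 and 0.496. Cenpa, the histone variant that marks the centromere itself, differed less, with 53.2 ± 2.67 CPM in the controls and 57.0 ± 2.78 CPM in ecko (SD, n = 3) and groups that overlapped. Its log2 fold change of 0.10 was 0.06 without control 1 or without ecko 1.

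Among the 8 genes of mitotic entry 4 had groups without overlap, and the median log2 fold change was 0.14. Ccnb1, the cyclin B1 gene whose product opens mitosis with CDK1, had 99.3, 92.8 and 104 CPM in the controls and 114, 114 and 106 CPM in ecko. The lowest ecko library was just above the highest control, and the difference was 0.18 ± 0.07 on the log2 scale (edgeR adjusted p 0.512). Cdk1 had 78.9, 79.6 and 90.5 CPM against 83.9, 91.4 and 92.2 CPM, with control 3 inside the ecko range (0.10 ± 0.07, from 0.07 without control 1 to 0.18 without control 3). Plk1, the Polo-like kinase of spindle assembly and mitotic exit, had 48.2, 44.7 and 38.7 CPM against 50.4, 49.1 and 51.4 CPM, without overlap (0.20 ± 0.09, or 0.12 without control 3).

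Cdc25c, the phosphatase that activates CDK1, had 19.8 ± 0.32 CPM in the controls and 22.6 ± 1.13 CPM in ecko (SD, n = 3), and Ccnb2 60.4 ± 2.10 and 64.5 ± 2.02 CPM, both without overlap. Aurka, the centrosomal Aurora kinase, and Ccna2, the cyclin of S phase and G2, had log2 fold changes of 0.17 and 0.08 with groups that overlapped. That of Aurka ran from 0.07 without control 3 to 0.30 without control 1. Foxm1, the transcription factor that activates many late cell cycle genes, differed least of all members. It had 80.3, 76.3 and 89.6 CPM in the controls and 77.96, 84.2 and 89.9 CPM in ecko, so that the ranges nearly coincide (0.03 ± 0.08, 95% interval of the fold 0.906 to 1.16). Without control 2 the log2 fold changes of Foxm1, Birc5, Ccna2 and Kif4 were -0.0185, -0.0217, -0.0075 and -0.0167, and that of Foxm1 was -0.017 without ecko 3.

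**Figure D2:**
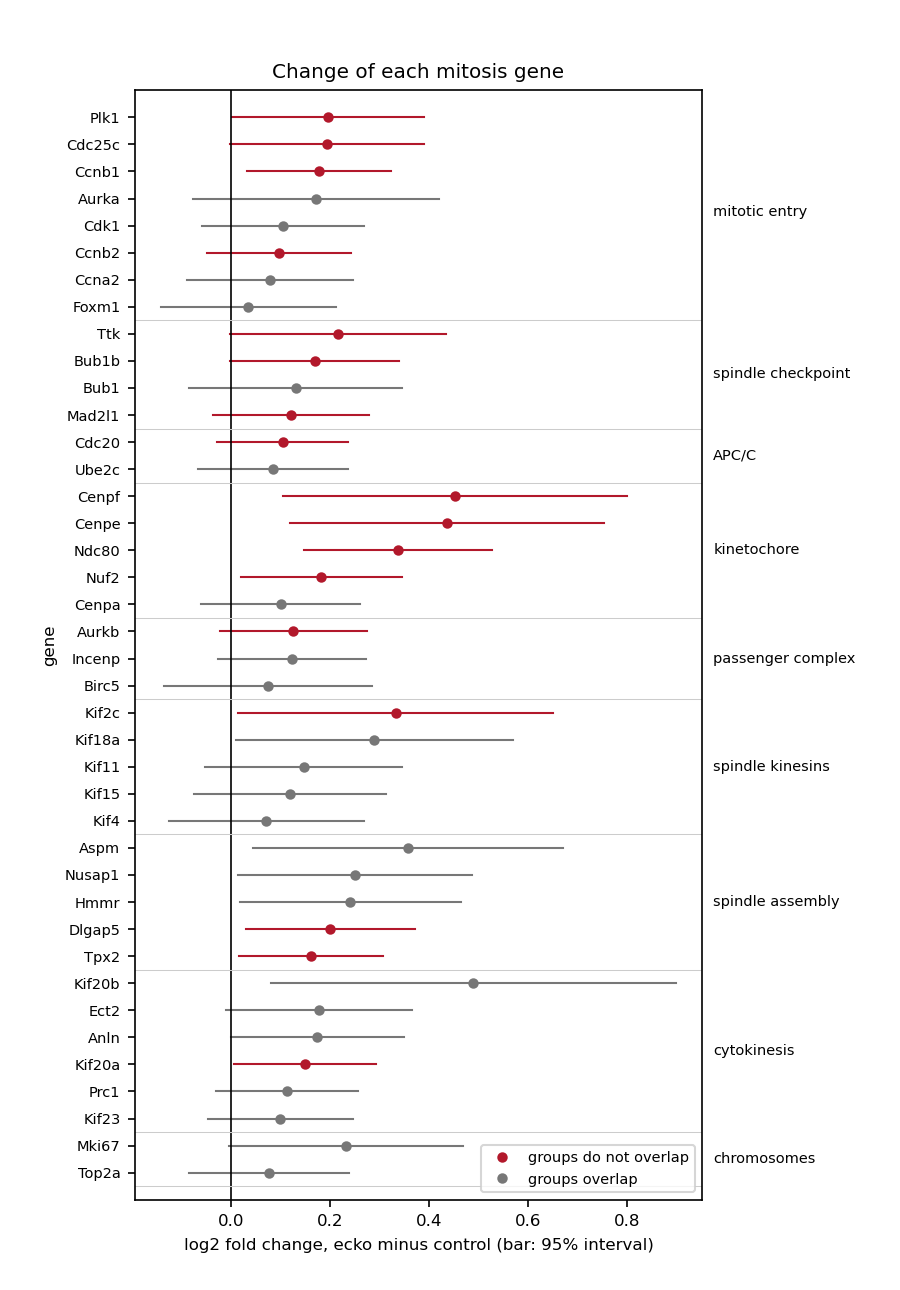
Points give the edgeR log2 fold change of each mitosis gene, ecko minus control, with its 95% interval before adjustment for the number of genes; rows are grouped by role and red marks the 17 genes whose groups do not overlap. All points lie right of 0, from 0.03 for Foxm1 to 0.49 for Kif20b.

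In the spindle checkpoint all 4 members were higher on average and 3 had no overlap. Bub1b, the kinase-like BUBR1 that restrains the APC/C, had 77.6, 69.1 and 78.3 CPM in the controls and 90.6, 83.3 and 78.8 CPM in ecko. Ecko 3 stood less than 1 CPM above control 3 (log2 fold change 0.17 ± 0.08, or 0.11 without control 2 or without ecko 1). Ttk, the MPS1 kinase that starts checkpoint signalling, and Mad2l1, the MAD2 protein that binds CDC20, had 0.22 ± 0.10 and 0.12 ± 0.07, both without overlap. They were 0.14 for Ttk without ecko 1 and 0.07 for Mad2l1 without control 2. Bub1, the kinase that recruits checkpoint proteins to kinetochores, had 0.13 ± 0.10 with overlap, from 0.03 without control 2 to 0.20 without control 3.

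The APC/C genes showed the smallest median, 0.09. Cdc20, the activator of the APC/C that the checkpoint holds back, had 75.1, 74.5 and 75.3 CPM in the controls and 80.3, 78.4 and 82.9 CPM in ecko. The controls lay within 1 CPM of each other, closer than counting error at 1306 to 1346 counts would give. Every ecko library was above them, by a log2 fold change of 0.10 ± 0.06. Ube2c, the ubiquitin-conjugating enzyme of the APC/C, had 0.08 ± 0.07 with overlap, and 0.05 without ecko 3. Of the chromosomal passenger complex, which corrects faulty attachments, Aurkb had 46.0, 45.9 and 47.7 CPM against 51.2, 51.4 and 49.6 CPM without overlap (0.12 ± 0.07). Its partners Incenp (0.12 ± 0.07) and Birc5 (survivin, 0.07 ± 0.10) overlapped.

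Among the 5 spindle kinesins Kif2c, a microtubule depolymerase at centromeres, was the 1 without overlap. It had 40.8, 39.6 and 27.1 CPM in the controls and 47.2, 43.3 and 44.7 CPM in ecko, a log2 fold change of 0.33 ± 0.14 that was 0.17 without control 3. Kif18a, which damps chromosome movement, had 0.29 ± 0.13. Kif11, the motor that pushes spindle poles apart, had 0.15 ± 0.09, Kif15, which shares that task, 0.12 ± 0.09, and the chromokinesin Kif4 0.07 ± 0.09. Kif11 ran from 0.05 without control 2 to 0.23 without control 3, and Kif15 was 0.06 without control 2 or without ecko 2.

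The 5 genes of spindle assembly had a median of 0.24. Dlgap5, which stabilises kinetochore fibres, had 30.2, 27.4 and 28.9 CPM in the controls and 33.2, 33.1 and 33.2 CPM in ecko. The SD of 0.0159 CPM over the ecko libraries is smaller than counting error at 567 to 596 counts, so it does not measure their scatter. Tpx2, the activator of Aurora A on the spindle, had 98.4, 89.3 and 95.9 CPM against 111, 105 and 101 CPM. In both genes the groups did not overlap, with log2 fold changes of 0.20 ± 0.08 and 0.16 ± 0.07.

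Aspm, a spindle pole protein, had 56.3, 47.5 and 37.2 CPM in the controls and 63.8, 61.7 and 55.2 CPM in ecko. Hmmr, a spindle protein that is also a hyaluronan receptor, had 41.9, 38.0 and 33.0 CPM against 46.9, 46.4 and 40.2 CPM. In both, control 1 reached above ecko 3 and control 3 was the lowest library. The log2 fold changes were 0.36 ± 0.14 and 0.24 ± 0.10, and without control 3 they were 0.22 and 0.16. Nusap1, which bundles spindle microtubules, had 0.25 ± 0.11 with overlap, and 0.14 without control 2.

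Of 6 genes of cytokinesis 1, Kif20a, had no overlap (0.15 ± 0.06). Kif20b, a kinesin of the final separation of daughter cells, had the largest fold change of the 40. Its values were 27.4, 16.4 and 21.7 CPM in the controls and 35.3, 29.7 and 27.0 CPM in ecko. Control 1 was above ecko 3, so the groups overlapped, and the log2 fold change of 0.49 ± 0.18 (edgeR adjusted p 0.513) was 0.32 without control 2. Anln, the actin-binding anillin of the cleavage furrow, and Ect2, which switches on RhoA there, had 0.17 ± 0.08 and 0.18 ± 0.08. Prc1, which bundles the midzone of the spindle, had 0.11 ± 0.06, and Kif23, the kinesin of the same midzone, 0.10 ± 0.07. Without ecko 1 Anln had 0.11 and Kif23 0.06.

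The 2 most abundant members by CPM are the usual marks of dividing cells. Mki67, which coats mitotic chromosomes and is stained as Ki-67, had 368, 300.5 and 406 CPM in the controls and 451, 419 and 392 CPM in ecko. Control 3 lay above ecko 3, and the log2 fold change was 0.23 ± 0.11, or 0.12 without control 2. Top2a, the topoisomerase that untangles sister chromatids, had 332, 311 and 369 CPM against 346, 369 and 352 CPM (0.08 ± 0.07, from 0.02 without control 2 to 0.15 without control 3). The 2 groups overlapped for both genes, and the interval of the Top2a fold ran from 0.943 to 1.18.

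Levels between genes can be set side by side only per transcript length, taken here from the longest protein-coding GENCODE transcript. In the controls Top2a had the highest level, 64.6 CPM per kb (59.7 to 70.7 over the libraries), followed by Ccna2 with 52.6 (46.4 to 56.3), and their ranges did not overlap. Cdc20, Ccnb1 and Ccnb2 came next, with 41.8, 39.6 and 39.4 CPM per kb, below the range of Ccna2 and with ranges that overlapped from one to the next. At the low end stood Kif20b with 3.93 (2.95 to 4.92), Kif18a with 4.11, Aspm with 4.76, Cenpe with 5.16 and Cenpf with 5.51 CPM per kb, again with ranges that overlapped. Among the 10 members with the lowest control level per length were 4 of the 6 with the largest fold changes. The control level is also the base of the fold change, so the overlap is a description and not independent of it. The spread between controls was widest in nearly the same genes. The coefficient of variation over the controls was 25% for Kif20b, 21.3% for Cenpf, 21.1% for Kif2c, 20.4% for Aspm and 17.9% for Cenpe, against a median of 8.16% over the members and 8.92% over all genes. In ecko the median over members was 4.81% and over all genes 6.62%, and 32 of the 40 varied more among controls.

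Transcript length moved with the difference over the whole table. Genes whose longest transcript was under 1000 bases had a median log2 fold change of -0.07 (701 genes) and those of 8000 bases or more 0.03 (804 genes). The 5 members of 6000 bases or more (Cenpf, Mki67, Aspm, Cenpe and Mad2l1) had a median of 0.36, and the 35 shorter ones 0.15. In every length class that held members their median was above that of all genes. It was 0.11 for the 6 members of 1000 to 2000 bases, where all genes had -0.03, and 0.15 for the 11 members of 4000 to 6000 bases, where all genes had 0.02. By library, genes under 1000 bases had median log2 deviations of 0.09 in control 3 and -0.07 in ecko 1, the furthest from 0. The part of length in the members' differences was not tested.

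**Figure D3:**
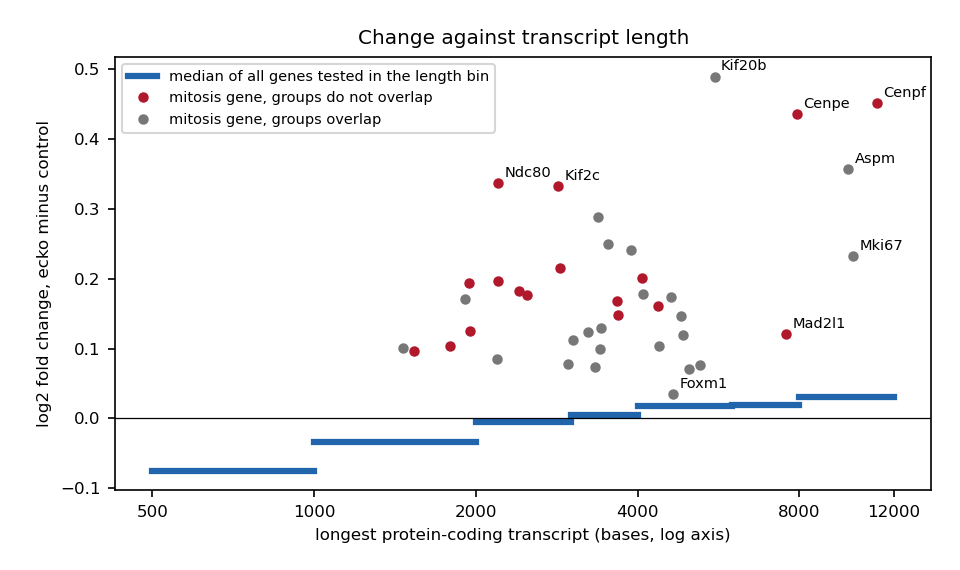
Each point is a mitosis gene, placed by its longest protein-coding transcript (log axis, bases) and its log2 fold change, ecko minus control; blue bars give the median of all genes tested in each length class, the outer classes being open-ended. The members lie above the bars at every length, and the class medians run from -0.07 for the shortest genes to 0.03 for the longest.

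Of 91 further mitosis genes, 90 were tested, and 71 of them were higher on average in ecko. Their median log2 fold change was 0.13, and 24 had no overlap on the higher side and 2 on the lower, against 7.55% and 8.11% of all genes. None passed the edgeR test, while 20 had an unadjusted p under 0.05 on the higher side and 2 on the lower (4.92% and 4.1% of all genes). The 3 with the smallest p had groups without overlap. Knl1, the kinetochore scaffold that holds checkpoint kinases, had 36.7 ± 6.38 CPM in the controls and 49.1 ± 2.68 CPM in ecko (SD, n = 3). Its log2 fold change was 0.42 ± 0.11 (SE). Cit, the citron kinase of the midbody, had 0.25 ± 0.08, and Iqgap3, a scaffold protein of dividing cells, 0.25 ± 0.09. Without control 2 the number with a higher mean was 59 of the 90.

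Genes of DNA replication, which act in S phase before mitosis, had mostly lower values. Of 55 tested, 43 were lower on average in ecko (median log2 fold change -0.10), and 7 (12.7%) had no overlap, all lower, against 8.11% of all genes on that side and 15.7% on either. None passed, and 5 (9.09%) had an unadjusted edgeR p under 0.05, all lower, against 4.1% and 9.01%. Mcm3, a subunit of the replicative helicase, had 116, 103 and 125 CPM in the controls and 86.2, 101 and 96.98 CPM in ecko. Mcm4, of the same helicase, had a log2 fold change of -0.20 ± 0.07 and Chaf1b, of the chromatin assembly factor, -0.33 ± 0.11, both without overlap. The median of this list was -0.033 with 36 lower without ecko 1, -0.045 with 37 lower without control 3 and -0.15 with 47 lower without control 2.

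Summed mitosis CPM divided by summed S phase CPM was 0.960, 0.924 and 0.913 for the control libraries, against 1.24, 1.07 and 1.055 for ecko. Every ecko library had the higher ratio, ecko 1 by the widest margin. The difference between the lists was not tested, because members of a list are not replicates. In the length class of 1000 to 2000 bases the 18 S phase genes had a median of -0.12 and the 6 mitosis genes 0.11. The S phase median was nearer 0 in longer genes. At 4000 to 6000 bases it was -0.02 (11 genes), against 0.15 for the mitosis genes. At 6000 to 8000 bases it was 0.02 (2 genes), against 0.28. The part of length in the difference between the lists was not tested.

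**Figure D4:**
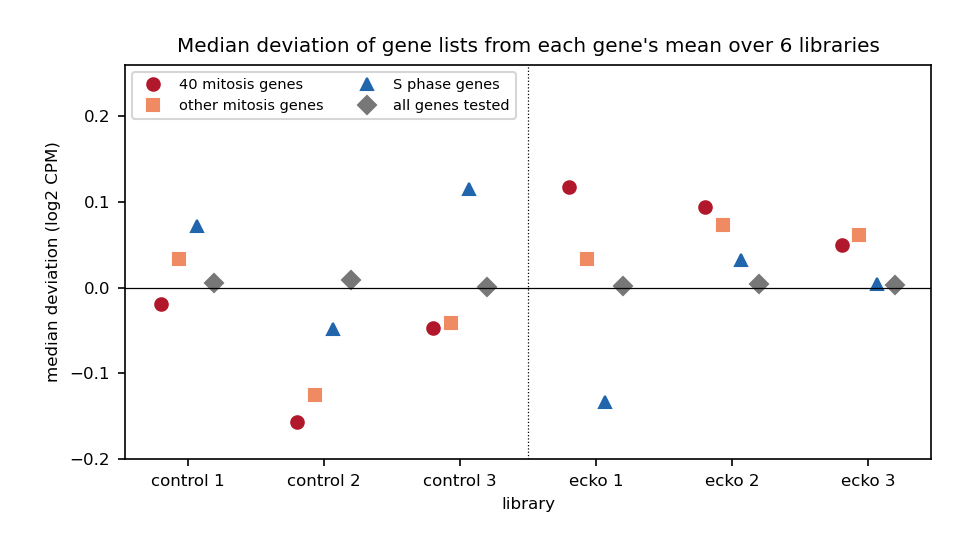
For each library the points show the median deviation of log2 CPM from each gene's mean over 6 libraries, for the 40 mitosis genes, 90 other mitosis genes, 55 S phase genes and all genes tested. The mitosis genes lie below 0 in the 3 controls and above 0 in the 3 ecko libraries, the S phase genes are lowest in ecko 1, and the median of all genes stays within 0.01 of 0.

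Markers of the cell types that could carry these transcripts were set beside the mitosis genes. Of 7 basal keratinocyte genes 6 were lower on average in ecko (sums of 6744 to 7451 CPM in the controls, 6564 to 6801 CPM in ecko), and of 9 hair matrix genes 6 were (1970 to 2758 and 2057 to 2325 CPM). Most of the hair matrix sum came from the keratin genes Krt71, Krt25 and Krt28, so it does not measure dividing matrix cells alone. Of 7 fibroblast genes 5 were higher (34696 to 40417 and 37039 to 38203 CPM), and all 8 macrophage genes were (599 to 693 and 663 to 712 CPM). Endothelial markers without Kdr summed to 421 to 511 CPM in the controls and 389 to 417 CPM in ecko, with 8 of 9 lower and no overlap of the sums. The 7 tested erythroid genes were all lower in mean, with sums over the 8 listed of 1151 to 2711 and 1561 to 2051 CPM. No marker of the basal keratinocyte, hair matrix, fibroblast, macrophage, endothelial or erythroid list was at 0 in any library, and the part of these cell types in the mitosis values was not tested.

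Some members share reads with other genes. Counts of Ccna2, Prc1 and Kif20a were not whole in all 6 libraries, as estimated counts are when reads fit more than 1 place. Exons of 8 members overlap an exon of a gene on the opposite strand: Ccna2, Cdc20, Ube2c, Kif18a, Kif4, Nusap1, Prc1 and Kif20a. Foxm1 overlaps Tex52 on its own strand. Of these, Cdc20, Ube2c, Kif18a, Kif4 and Foxm1 had whole counts in all 6 libraries, and Nusap1 had a count that was not whole in 1. The strand setting is not given in the sources used here, so how reads in these overlaps were assigned cannot be checked. For Ube2c the partner is Tnnc2, a skeletal muscle gene. None of the 4 genes with the largest fold changes overlaps another gene in this way.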

How the data were processed

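Poly(A) RNA of ear skin was sequenced in 6 libraries, 3 per group. The deposited values are expected counts, 1 per gene and library, not scaled between libraries; 10.1% to 10.4% of values per library are not whole. Per the submitters' processing notes HISAT2 2.2.1, Bowtie2 2.4.5, RSEM 1.3.1 and GRCm38.p6 were used, with no roles; annotation and strand are not given in the sources used here. The notes name no tool for molecular identifiers, so copies made in amplification may be counted as reads. Greater depth lowers counting error only.

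Counts were rounded and tested with edgeR 4.0.16 (R 4.3.3): filterByExpr with a minimum count of 10, TMM, robust glmQLFit, two-sided quasi-likelihood test of ecko minus control, Benjamini-Hochberg over 14920 genes, threshold 0.05. The SE was derived from the fold change and its F statistic (size of the change over the root of F), and 95% intervals use its degrees of freedom. Log2 CPM used a prior count of 2. The test was checked on simulated counts. An exact permutation test of 3 against 3 cannot go below 0.1 and was not used.

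Members and lists were chosen with earlier results of these data known. Libraries' values are given for the 10 members with the smallest p, 8 core genes, and the member of each role with the smallest p; from other pathway lists, the 3 smallest p. Lengths are of the longest protein-coding GENCODE M21 transcript (14457 of 14920 genes matched). Alternatives were DESeq2 1.42.0 (size factors, Wald test), limma-voom (limma 3.58.1), other filters, scaling without the 20 most abundant genes, no robust estimation, a replicate block, a skeletal muscle covariate, leaving out each library, and a Y-linked covariate added after the data were seen.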

Additional observations from a re-analysis of the deposited data

How the results depend on the processing

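No mitosis member and none of the other mitosis genes passed under any alternative but one. In the edgeR fit with the replicate block 2 members passed, Cenpf (adjusted p 0.0322) and Cenpe (0.0397), both higher in ecko, and 0 of the other mitosis genes. The replicate numbers are not known to pair samples: over all genes, deviations from the group means correlated at 0.162, -0.237 and -0.073 for equal numbers and at 0.336 for control 2 with ecko 3. Over all genes the numbers past the threshold were 0 higher and 1 lower. They were 87 and 26 with the DESeq2 Wald test, 88 and 10 with the replicate block, 57 and 8 with the muscle covariate, 1 and 1 with the Y-linked covariate, and 0 to 2 higher with 1 library left out (2 without ecko 3). The cause was not tested. The median of the 40 members ran from 0.1159 (without control 2) to 0.185 (without control 1) with 1 library left out. Differences around 0 changed sign with 1 library left out for Foxm1 (-0.0185 to 0.1075), Birc5 (-0.0217 to 0.1302), Ccna2 (-0.0075 to 0.1284) and Kif4 (-0.0167 to 0.1535). Members without overlap numbered 17 to 26 with 1 library left out, against 10.2% to 15.1% of all genes. Members at an unadjusted edgeR p under 0.05 numbered 1 (2.5%, without ecko 1) to 19 (47.5%, without control 1), against 3.72% and 11.9% of all genes.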

Other observations

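Of 15 genes of the DREAM and MuvB complexes and NF-Y, which silence or activate these promoters, 7 were higher and 8 lower on average in ecko. Their median log2 fold change was -0.02, and 0 passed the edgeR test (1 higher and 1 lower at an unadjusted p under 0.05, 6.67% each, against 4.92% and 4.1% of all genes). Without overlap there were 2 higher and 2 lower (13.3% each, against 7.55% and 8.11%). Tfdp2, a partner of E2F factors, had 0.23 ± 0.08 (SE), and the pocket protein gene Rbl2 0.15 ± 0.07. E2f4, the repressive E2F of the DREAM complex, had 39.0, 36.7 and 37.7 CPM in the controls and 31.6, 33.7 and 34.0 CPM in ecko (-0.19 ± 0.07). The groups of these 3 genes did not overlap, and their edgeR adjusted p ran from 0.495 to 0.562.

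Of 16 tested genes that slow or stop the cycle, 11 were higher on average in ecko (median 0.04) and 0 passed the test (2 higher and 2 lower at an unadjusted edgeR p under 0.05, 12.5% each, against 4.92% and 4.1% of all genes). Without overlap there were also 2 higher and 2 lower, against 7.55% and 8.11%. Ccng2, cyclin G2 of cells leaving the cycle, had 65.5, 64.6 and 55.7 CPM in the controls and 92.4, 73.5 and 80.4 CPM in ecko, a log2 fold change of 0.41 ± 0.10 (edgeR adjusted p 0.3002). Cdkn1b, the CDK inhibitor p27, had 70.2 ± 2.05 and 80.1 ± 4.99 CPM (SD, n = 3), and Cdkn2c, the CDK4 and CDK6 inhibitor p18, a log2 fold change of -0.17 ± 0.07. The groups did not overlap for any of these 3 genes.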
